A study of Mus musculus with 6 samples.

Results

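The 43 genes described here are those of cholesterol and fatty acid synthesis, of the sterol sensing that sets their transcription, and of sterol efflux. They were chosen by symbol from the gene table of a mouse RNA sequencing study, and all 43 were found among its 12830 genes. The study sequenced RNA from primary bone marrow stromal cells (BMSCs), plastic-adherent cells of the marrow with osteoblast and adipocyte potential, taken on day 2 of osteogenic induction. The mice were 8 weeks old. All carried floxed Rras2 alleles (Rras2f/f). The 3 libraries labelled Rras2FF came from mice with the floxed alleles alone, and the 3 labelled CKO from Prx1;Rras2f/f mice. The Prx1 promoter is active in limb mesenchyme, and the Prx1 construct is used to delete floxed genes there, not in blood cells. Whether replicate libraries stem from different animals or cultures is not stated in the labels. The p-values therefore reflect the spread among these 6 libraries alone, and that spread may be technical.

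Cholesterol and fatty acids are both built from acetyl-CoA in the cytosol. The mevalonate pathway joins acetyl-CoA units into isoprenoids, which are condensed to squalene, closed into lanosterol and trimmed to cholesterol, while fatty acid synthase builds palmitate from malonyl-CoA and desaturases and elongases then modify the chain. Both sets of genes are transcriptional targets of SREBP proteins, membrane-bound factors that SCAP escorts to the Golgi for cleavage when sterols are low and that INSIG proteins hold back in the endoplasmic reticulum when sterols are high. Sterol in excess is sensed through oxysterols by the LXR receptors, which raise the ABC transporters that export cholesterol and also raise Srebf1 and Scd1.

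Library totals, taken over the genes in the table, ranged from 31934714 to 37561452 counts. Rras2, the targeted gene, had 49.7, 50.1 and 44.7 CPM in Rras2FF and 26.7, 29.0 and 26.8 CPM in CKO. CPM is edgeR's counts-per-million unit, with library sizes adjusted by TMM. No library of one group overlapped the other, and Rras2 fell by 0.81 on the log2 scale (standard error 0.0683, edgeR quasi-likelihood test, adjusted p = 1.08e-05). Stromal and bone markers were present, Cxcl12 averaging 3483 CPM and Col1a1 8159 CPM in Rras2FF. The cultures also held macrophage transcripts at high levels, Lyz2 averaging 15800 CPM in Rras2FF and 17130 CPM in CKO. Counts from such a mixture cannot tell fewer cells of a type apart from less RNA per cell.

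A minority of the genes fell in CKO, by small amounts, and none rose. Of the 43 genes 7 fell and 0 rose, where over all 12830 genes 2.74% fell and 2.1% rose (edgeR, quasi-likelihood; a call needs a p below 0.05 after Benjamini-Hochberg adjustment over all genes). In the fatty acid branch 5 of 13 fell, namely Fads2, Scd2, Scd1, Fasn and Acss2, by 0.28 to 0.37 on the log2 scale. In the sterol branch 2 of 26 fell, Nsdhl and Hsd17b7, by 0.27 and 0.26. The 26 include the 6 genes of sterol sensing and SREBP control, among them Srebf1, which also serves fatty acid genes. The 4 efflux and LXR genes had 0 calls, 1 of them having an unadjusted p below 0.05. Whether the branches differ in their share of calls was not tested.

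Most genes of the sterol and the fatty acid branch had negative values whether or not they passed. The 6 sterol sensing genes split into 3 negative and 3 positive. Log2 fold changes were negative for 20 of 26 sterol genes, 12 of 13 fatty acid genes and 2 of 4 efflux and LXR genes, against 49.8% of all genes. Their medians were -0.106, -0.196 and 0.0108, and the median of all genes was 0.000579. Every CKO library was below every Rras2FF library for 8 sterol and 7 fatty acid genes, 15 of the 43, while 11.2% of all genes were so ordered. Only Abca1 had every CKO library above every Rras2FF library, an order that 11.3% of all genes had. An unadjusted p below 0.05 was reached by 21 of the 43 genes and by 17.3% of all genes. The 43 genes had a median level of 73.1 CPM, above the 30.9 CPM of all genes, and higher counts make small changes easier to call. Among genes averaging at least 10 CPM, refitted alone, 5.31% were called in either direction and 3.02% fell. DESeq2 called 9 of the 43, adding Me1 and Abca1, where it called 6.61% of all genes and 3.85% as lower, and limma-voom called 4, Hsd17b7, Fads2, Scd1 and Scd2, where it called 3.38%. The authors' deposited table gives 9 of the 43, and 848 of all genes, an adjusted p below 0.05. Its log2 fold changes differ from those of DESeq2 by at most 0.000109, so it is not a separate result.

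**Figure D1:**
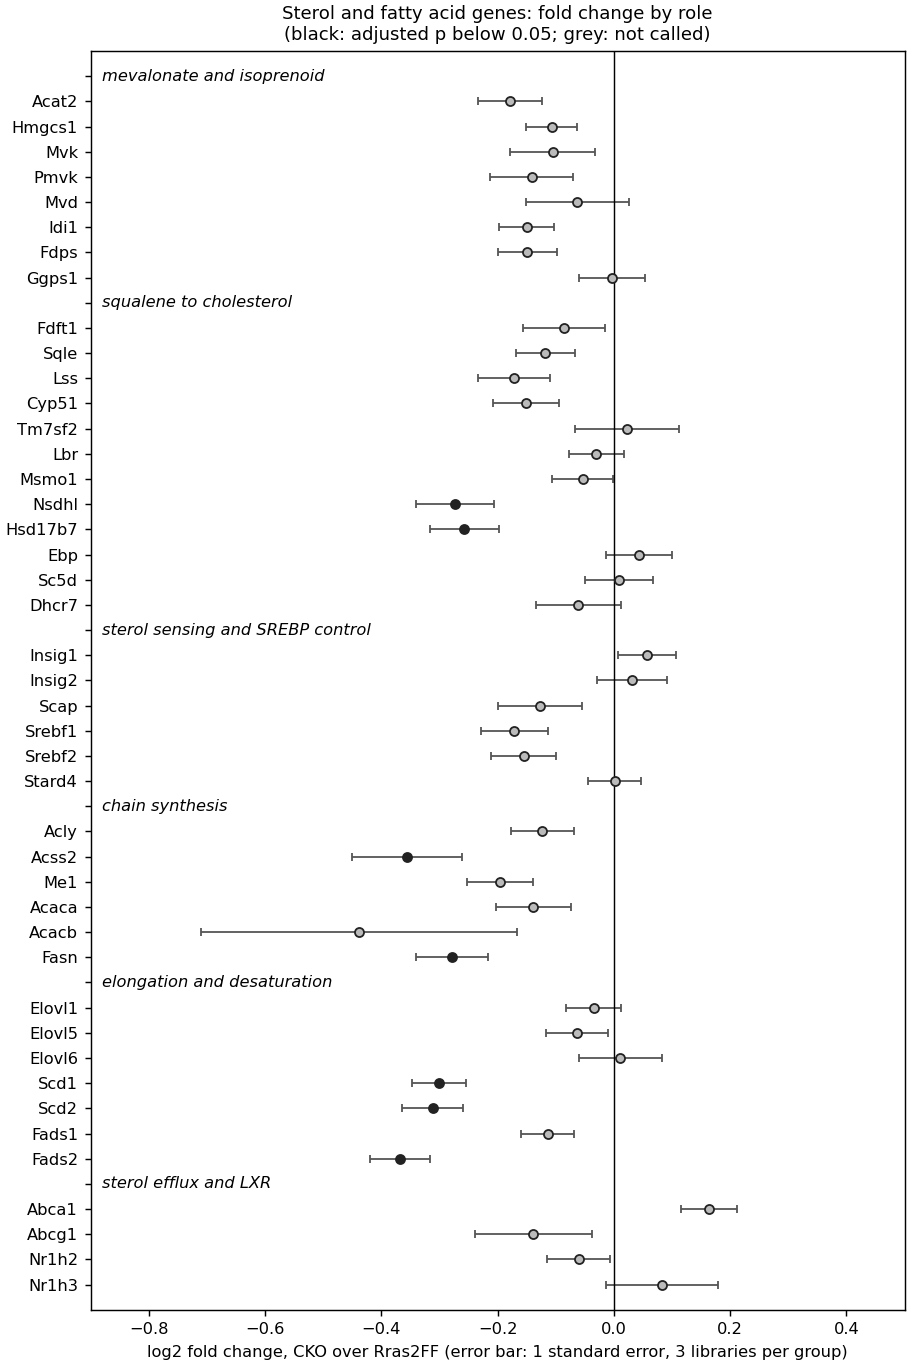
Log2 fold change of each of the 43 genes, CKO over Rras2FF, on the horizontal axis, grouped by role; error bars are 1 standard error and black points passed an adjusted p of 0.05. All 7 black points lie left of zero, 5 of them among the fatty acid genes, and Abca1 has the highest fold change at 0.16.

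Promoter windows were taken from RefSeq (build GRCm38.p6, the assembly also called mm10), each from 250 bases before to 50 after an annotated start, 300 bases in all. Of the 43 genes 35 had at least 1 window, and Abcg1, Fads1, Fdft1, Fdps, Scd1, Scd2, Sqle and Stard4 had none. SREBP proteins bind sterol response elements and are known to work beside the factor NF-Y, which binds CCAAT. The letters CCAAT, on either strand, stood in 28 of the 46 windows of these genes, or 60.9%, and in 37.4% of all 32851 windows. Counted by gene, they were found for 20 of 22 sterol genes, 7 of 10 fatty acid genes and 0 of 3 efflux and LXR genes. Over all 27025 genes with a window the share was 41.1%. The sterol element letters TCACNCCAC stood in 1 of the 46 windows, that of Hmgcs1, and in 1.24% of all windows. The E-box CACGTG, read alike on both strands, stood in 8 of the 46 windows and 7.15% of all. The Scap windows overlap and share a match, and counted by gene it was found for 7 of 35, against 8.09% of all genes. The letters AGGTCA followed by any 4 bases and AGGTCA again, a repeat of the kind LXR binds, stood in 0 of the 46 and 0.0152% of all. These matches are letters in a window, not measured sites. The windows of the 5 called genes that have one are printed to show what the counts rest on, and that of Hmgcs1 for its sterol element. Capitals mark CCAAT, its reverse complement ATTGG and, in Hmgcs1, the sterol element.
Fasn (chr11:120824498-120824797, minus strand): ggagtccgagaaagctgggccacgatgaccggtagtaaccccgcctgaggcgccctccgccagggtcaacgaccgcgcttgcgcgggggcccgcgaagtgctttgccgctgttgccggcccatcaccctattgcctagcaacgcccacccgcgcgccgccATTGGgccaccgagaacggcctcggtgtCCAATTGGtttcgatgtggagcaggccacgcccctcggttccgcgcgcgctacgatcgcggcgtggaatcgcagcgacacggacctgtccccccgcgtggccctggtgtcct
Acss2 (chr2:155517793-155518092, plus strand): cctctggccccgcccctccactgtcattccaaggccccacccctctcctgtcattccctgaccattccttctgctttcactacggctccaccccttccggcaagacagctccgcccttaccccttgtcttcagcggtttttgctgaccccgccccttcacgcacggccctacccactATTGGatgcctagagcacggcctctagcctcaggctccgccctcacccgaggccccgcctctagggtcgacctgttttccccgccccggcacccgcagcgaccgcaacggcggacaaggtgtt
Fads2 (chr19:10101454-10101753, minus strand): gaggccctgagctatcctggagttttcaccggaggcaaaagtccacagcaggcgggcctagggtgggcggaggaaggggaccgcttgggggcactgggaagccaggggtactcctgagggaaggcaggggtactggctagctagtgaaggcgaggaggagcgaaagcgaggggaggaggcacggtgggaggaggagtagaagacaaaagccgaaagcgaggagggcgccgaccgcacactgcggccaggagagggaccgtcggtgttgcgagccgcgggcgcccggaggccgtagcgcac
Nsdhl (chrX:72918271-72918570, plus strand): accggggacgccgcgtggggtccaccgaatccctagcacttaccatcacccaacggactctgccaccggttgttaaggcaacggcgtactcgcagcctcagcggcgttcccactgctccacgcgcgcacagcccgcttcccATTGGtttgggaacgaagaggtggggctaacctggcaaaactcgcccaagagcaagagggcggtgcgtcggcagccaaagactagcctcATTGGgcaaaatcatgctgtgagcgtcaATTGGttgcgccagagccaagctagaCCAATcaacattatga
Hsd17b7 (chr1:169969156-169969455, minus strand): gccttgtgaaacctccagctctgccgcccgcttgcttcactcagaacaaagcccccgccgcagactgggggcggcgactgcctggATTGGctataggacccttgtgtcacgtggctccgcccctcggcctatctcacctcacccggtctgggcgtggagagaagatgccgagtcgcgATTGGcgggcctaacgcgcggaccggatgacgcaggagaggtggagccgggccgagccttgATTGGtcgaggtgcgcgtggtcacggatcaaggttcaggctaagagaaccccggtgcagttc
Hmgcs1 (chr13:119690101-119690400, plus strand): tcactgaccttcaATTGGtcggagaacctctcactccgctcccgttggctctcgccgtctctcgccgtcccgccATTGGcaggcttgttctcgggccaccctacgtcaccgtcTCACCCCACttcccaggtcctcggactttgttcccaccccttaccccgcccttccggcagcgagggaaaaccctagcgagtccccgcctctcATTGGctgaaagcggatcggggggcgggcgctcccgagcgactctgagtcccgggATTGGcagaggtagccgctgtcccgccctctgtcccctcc
Where CCAAT and ATTGG share letters, as once in the Fasn window, both were counted. Fasn had 3 such matches, Nsdhl 4, Hsd17b7 3, Acss2 1, Fads2 0 and Hmgcs1 4. Among genes that were not called, Mvk had 5. Whether the letters go with the fold changes was not tested.

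The first steps of the sterol branch turn acetyl-CoA into isoprenoid units. All 8 genes of this group had negative log2 fold changes, from -0.18 to 0.00 (-0.0032 for Ggps1), and 0 were called by edgeR, DESeq2 or limma-voom. In this group 4 had an unadjusted p below 0.05. Hmgcs1, the HMG-CoA synthase, had 240, 235 and 221 CPM in Rras2FF and 213, 219 and 214 CPM in CKO. The groups did not overlap, but CKO replicate 2 and Rras2FF replicate 3 nearly met, and the log2 fold change of -0.11 did not pass the test (standard error 0.0441, adjusted p = 0.217). Fdps, which makes farnesyl diphosphate, had 140, 144 and 129 CPM in Rras2FF and 121, 122 and 130 CPM in CKO, and the groups overlapped (log2 fold change -0.15, adjusted p = 0.127). The other 6 genes were Acat2 (thiolase), Mvk and Pmvk (kinases of mevalonate), Mvd (decarboxylase), Idi1 (isomerase) and Ggps1 (geranylgeranyl diphosphate synthase). Acat2 came nearest to a call, averaging 77.7 ± 3.15 CPM in Rras2FF and 68.6 ± 3.18 CPM in CKO (SD, n = 3), with an adjusted p of 0.0847. Ggps1, which leads to protein prenylation and not to sterol, averaged 43.4 and 43.3 CPM.

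From squalene to cholesterol 2 of 12 genes fell, and both belong to 1 enzymatic step, the removal of the methyl groups at carbon 4. Nsdhl, the sterol dehydrogenase of that step, had 56.3, 52.2 and 54.3 CPM in Rras2FF and 44.5, 48.6 and 41.5 CPM in CKO. Hsd17b7, the ketosteroid reductase that follows it, had 52.7, 49.0 and 50.6 CPM in Rras2FF and 43.0, 43.3 and 41.1 CPM in CKO. For both genes every CKO library was lower than every Rras2FF library. Nsdhl had a log2 fold change of -0.27 with a standard error of 0.0668 (adjusted p = 0.0293), and Hsd17b7 of -0.26 with 0.059 (adjusted p = 0.0213). Nsdhl lies on chromosome X of mm10, from 72918557 to 72958514, and Hsd17b7 on chromosome 1, from 169949535 to 169969241. Both calls were lost without certain single libraries. Fits without those libraries called 268 to 379 genes over all genes, against 621 in the full fit. Across the 15 fits the log2 fold changes stayed between -0.34 and -0.22 for Nsdhl and between -0.28 and -0.23 for Hsd17b7. The adjusted p of Nsdhl was 0.115, 0.0696, 0.0885 and 0.122 without Rras2FF replicates 1, 2 and 3 and CKO replicate 3, and 0.0619 in limma-voom. That of Hsd17b7 was 0.106, 0.0649, 0.0538 and 0.0809 without Rras2FF replicates 1 and 3 and CKO replicates 2 and 3.

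Msmo1, the oxidase that opens the same demethylation step, was not called, and whether it differs from the other two was not tested. It had 155, 149 and 140 CPM in Rras2FF and 133, 148 and 146 CPM in CKO, with overlapping groups (log2 fold change -0.05, standard error 0.0523, adjusted p = 0.664). Cyp51, the lanosterol demethylase, had 176, 170 and 152 CPM in Rras2FF and 142, 152 and 155 CPM in CKO, and its log2 fold change of -0.15 did not pass (adjusted p = 0.168). The 10 genes of this group that were not called had log2 fold changes between -0.17 and 0.04. Lss, the lanosterol synthase, and Sqle, the squalene epoxidase, stood at -0.17 and -0.12 with groups that did not overlap (adjusted p = 0.151 and 0.232). Fdft1, the squalene synthase, and Dhcr7, a reductase late in the pathway, stood at -0.09 and -0.06. Tm7sf2 and Lbr, which both encode sterol C14 reductases, Ebp, the sterol isomerase, and Sc5d, the desaturase after it, lay between -0.03 and 0.04.

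The regulators of the pathway had 0 calls of 6 by edgeR, DESeq2 and limma-voom, 2 with an unadjusted p below 0.05. Srebf2, which encodes the SREBP that mainly serves sterol genes, had 221, 217 and 213 CPM in Rras2FF and 214, 188 and 182 CPM in CKO. Srebf2 stood at -0.16 on the log2 scale (standard error 0.0556, adjusted p = 0.153). CKO replicate 1 sat among the Rras2FF libraries while the other two CKO libraries were below all of them. Srebf1, whose products mainly serve fatty acid genes, had 97.2, 97.7 and 87.8 CPM in Rras2FF and 89.3, 82.4 and 79.3 CPM in CKO (log2 fold change -0.17, adjusted p = 0.127). Scap, the escort protein, had 57.3, 55.5 and 57.9 CPM in Rras2FF and 58.8, 49.6 and 48.0 CPM in CKO (adjusted p = 0.406). All 3 showed CKO replicate 1 inside the range of Rras2FF or above it, and all 3 passed without that library, with adjusted p of 0.00172 for Srebf2, 0.0207 for Srebf1 and 0.0246 for Scap. Leaving out that library also raised the calls over all genes, from 621 to 1166. Insig1, itself a sensitive SREBP target, had 127, 128 and 127 CPM in Rras2FF and 125, 130 and 142 CPM in CKO, with a log2 fold change of 0.06 and a standard error of 0.0499 (adjusted p = 0.627). Insig2 and Stard4, a sterol carrier, stood at 0.03 and 0.00 (0.0012 for Stard4).

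In the supply of acetyl-CoA and NADPH and in chain synthesis, all 6 genes had negative log2 fold changes and 2 fell. Fasn, the fatty acid synthase, had 200.2, 199 and 186 CPM in Rras2FF and 178, 154 and 150.4 CPM in CKO. Acss2, which makes acetyl-CoA from acetate, had 22.5, 21.6 and 18.4 CPM in Rras2FF and 17.6, 15.2 and 16.1 CPM in CKO. Neither gene's groups overlapped, though for Acss2 the gap between Rras2FF replicate 3 and CKO replicate 1 was small beside the spread within the groups. The log2 fold changes were -0.28 for Fasn (standard error 0.0622, adjusted p = 0.0245) and -0.36 for Acss2 (0.095, adjusted p = 0.0462). Fasn lies on chromosome 11 from 120805846 to 120824547. Acss2, on chromosome 2 from 155517948 to 155585724, spans Gss on the opposite strand over 22544 bases. The library kit keeps strand, but the strand setting used in counting is unknown here, so reads of the pair may be mixed. Gss itself had a log2 fold change of -0.22 and did not pass (adjusted p = 0.217).

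Both calls ended when certain single libraries were left out, in fits that also called fewer genes over all genes. The adjusted p of Fasn was 0.0895, 0.123, 0.131 and 0.0845 without Rras2FF replicates 1 and 2 and CKO replicates 2 and 3, and 0.0594 in limma-voom. For Acss2 the same libraries gave 0.187, 0.199, 0.193 and 0.133, and limma-voom 0.0989. Me1, the malic enzyme that supplies NADPH, had 79.9, 73.3 and 76.5 CPM in Rras2FF and 64.1, 71.0 and 65.4 CPM in CKO. Its groups did not overlap and its log2 fold change of -0.20 missed the threshold in edgeR (adjusted p = 0.0684) and passed in DESeq2 (0.0413). Acly, the ATP citrate lyase, had 290, 280 and 259 CPM in Rras2FF and 272, 241 and 249 CPM in CKO, with overlapping groups (log2 fold change -0.12, adjusted p = 0.251, and 0.0322 without CKO replicate 1). The fit without CKO replicate 1 called 1166 genes over all genes, against 621 in the full fit. The 2 acetyl-CoA carboxylases were not called. Acaca, the cytosolic form, stood at -0.14 (adjusted p = 0.285). Acacb, the form tied to mitochondria, was near the floor of the table at 2.36 ± 0.438 CPM in Rras2FF and 1.74 ± 0.544 CPM in CKO (SD, n = 3), and its log2 fold change of -0.44 had a standard error of 0.272.

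Of the 7 elongation and desaturation genes 3 fell, all of them desaturases, and their calls held in every fit. Fads2, the desaturase that opens the synthesis of long polyunsaturated fatty acids, had 96.5, 90.4 and 88.1 CPM in Rras2FF and 73.2, 70.6 and 69.2 CPM in CKO. Scd2, a stearoyl-CoA desaturase that makes monounsaturated fatty acids, had 612, 595 and 568 CPM in Rras2FF and 492, 497 and 442 CPM in CKO. Scd1, its neighbour and paralogue, had 156, 163 and 157 CPM in Rras2FF and 135, 128 and 124 CPM in CKO. In all 3 genes every CKO library lay clearly below the lowest Rras2FF library. The log2 fold changes were -0.37 for Fads2 (standard error 0.0518, adjusted p = 0.000767), -0.31 for Scd2 (0.0522, adjusted p = 0.00282) and -0.30 for Scd1 (0.0458, adjusted p = 0.00138). These are 1.29-fold, 1.24-fold and 1.23-fold lower levels. All 3 were called in each of the 15 fits run, the 6 that left out a library included, with adjusted p of at most 0.00929, 0.0252 and 0.0185.

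The 3 genes share chromosome 19. Scd2 lies from 44293674 to 44306864 on the plus strand and Scd1 from 44394455 to 44407879 on the minus strand. Fads2 lies from 10062765 to 10101746 on the minus strand, next to Fads1 from 10182888 to 10196877 on the plus strand. Scd1 and Scd2 are similar in coding sequence, so reads shared between them make their separate values uncertain. Fads1, the desaturase that follows Fads2 in the same pathway, averaged 217 ± 5.79 CPM in Rras2FF and 200.4 ± 9.35 CPM in CKO (SD, n = 3). Its log2 fold change of -0.11 did not pass (standard error 0.0459, adjusted p = 0.204), and whether it differs from that of Fads2 was not tested. The elongases Elovl1, Elovl5 and Elovl6 had log2 fold changes of -0.03, -0.06 and 0.01 and adjusted p of 0.78, 0.605 and 0.959. Elovl1, of very long chains, had 104, 96.2 and 101 CPM in Rras2FF and 99.9, 97.2 and 96.6 CPM in CKO.

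**Figure D2:**
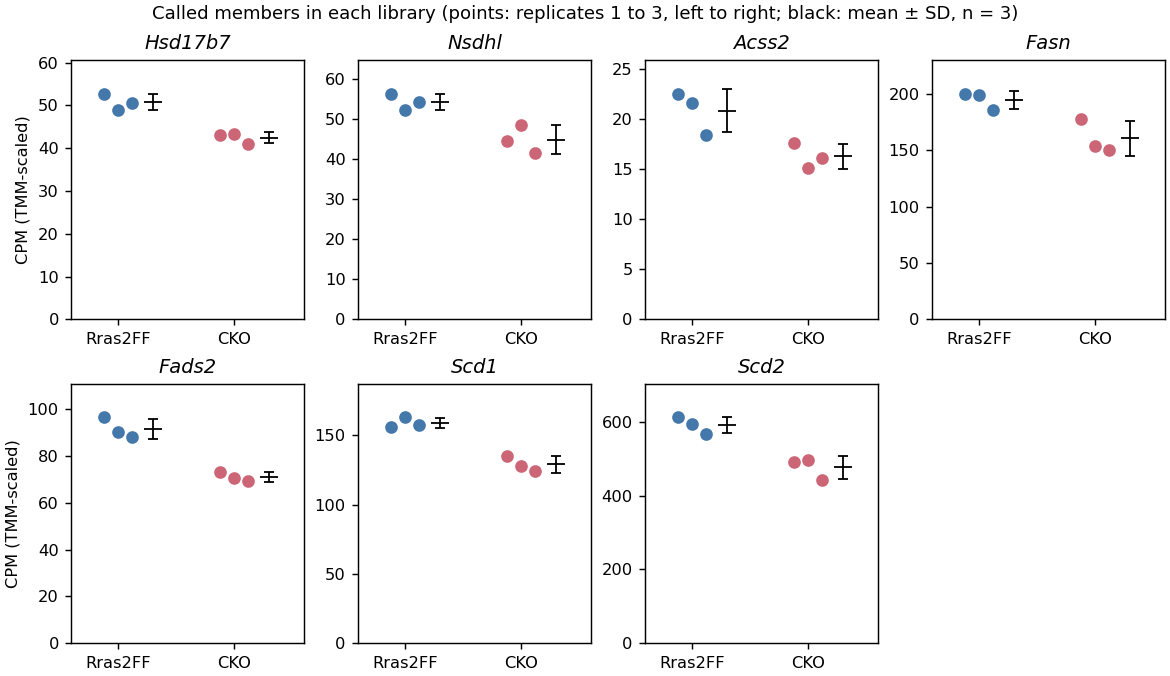
CPM (vertical axis, from 0) of the 7 called genes in each of the 3 Rras2FF and 3 CKO libraries, with the mean and SD of each group in black. No group overlaps the other in any panel; the Fads2 libraries, for example, reach at most 73.2 CPM in CKO and are at least 88.1 CPM in Rras2FF.

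None of the 4 efflux and LXR genes passed in edgeR or limma-voom, and DESeq2 called 1, Abca1. Abca1, the transporter that loads cholesterol onto lipoprotein particles, had 166, 166 and 161 CPM in Rras2FF and 176, 196 and 180 CPM in CKO, every CKO library above every Rras2FF library. Its log2 fold change of 0.16 had a standard error of 0.0481 and an adjusted p of 0.0735, which was 0.0471 in DESeq2 and 0.0116 without CKO replicate 1. The fit without that library called 1166 genes over all genes, against 621 in the full fit. Nr1h2, the broadly expressed LXR, had 73.2, 68.8 and 71.2 CPM in Rras2FF and 70.2, 64.4 and 69.7 CPM in CKO (log2 fold change -0.06, adjusted p = 0.631). Nr1h3, the other LXR, stood at 0.08. Abcg1, a second exporter, stood at -0.14, with 45.8 CPM in Rras2FF replicate 1 and between 34.0 and 36.7 CPM in the other five libraries.

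Levels between genes were compared on the deposited FPKM scale, which adjusts for length. The scale did not divide every library by 1 fixed length per gene. Elovl1, for example, had 96.2 CPM and 49.5 FPKM in Rras2FF replicate 2, and 99.9 CPM and 60.35 FPKM in CKO replicate 1. The most abundant transcript per length was that of Fdps, at 101.5 ± 5.80 FPKM in Rras2FF (SD, n = 3), followed by Scd2 at 99.3 ± 2.70 FPKM, and these 2 differed by less than their spread. Msmo1 had 66.7 FPKM and Hmgcs1 64.6 FPKM in Rras2FF. Scd2 stood above Scd1, which had 30.4 ± 1.02 FPKM, and among the SREBP genes Srebf2, at 39.3 ± 0.582 FPKM, stood above Srebf1, at 20.3 ± 1.26 FPKM. Fasn had 17.9 FPKM and Acacb, the lowest, 0.366 FPKM. FPKM and scaled counts gave group differences of the same sign for 40 of the 43 genes. The other three were Sc5d, Stard4 and Elovl1, the last averaging 53.01 FPKM in Rras2FF and 57.8 FPKM in CKO while its CPM went from 100.3 to 97.9.

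**Figure D3:**
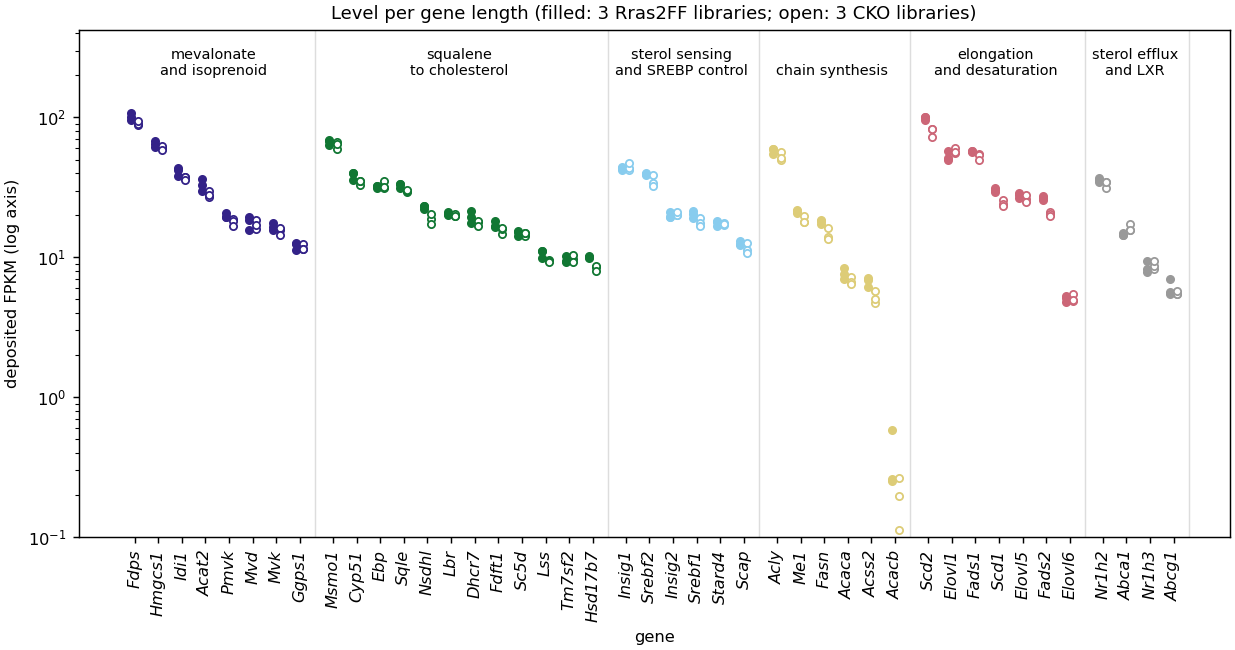
Deposited FPKM (vertical axis, log scale) of each of the 43 genes by role, with the 3 Rras2FF libraries filled and the 3 CKO libraries open. Fdps and Scd2 stand highest at 101.5 and 99.3 FPKM in Rras2FF, Acacb lowest, and open points sit below filled ones most plainly for Scd2, Scd1 and Fads2.

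The sterol calls and those of Fasn and Acss2 were lost without certain single libraries, and the desaturase calls were not. Over all genes, 621 were called with all 6 libraries. Leaving out CKO replicate 1 gave 1166 calls over all genes, and leaving out any other library gave 268 to 379. Rras2FF replicate 1 had the highest CPM of all 6 libraries for 25 of the 43 genes, 14 of 26 sterol and 9 of 13 fatty acid genes. Within Rras2FF, replicate 3 was the lowest for 17 of the 26 sterol genes. These counts were not made over all genes, so they may belong to the libraries as a whole. Relative to each gene's mean over the libraries, the median sterol gene stood at 0.10, 0.06 and -0.02 on the log2 scale in Rras2FF replicates 1, 2 and 3 and at -0.05, -0.02 and -0.04 in CKO replicates 1, 2 and 3. The median fatty acid gene stood at 0.13, 0.08 and 0.07 in Rras2FF and at -0.05, -0.09 and -0.13 in CKO. By these branch medians, Rras2FF replicate 3 lay near the CKO libraries for the sterol genes and apart from them for the fatty acid genes. The roles within a branch differed. For sterol sensing, Rras2FF replicate 3 stood at 0.04 and CKO replicates 1, 2 and 3 at -0.01, -0.05 and -0.08. For chain synthesis, Rras2FF replicate 3 stood at 0.04 and CKO replicates 1, 2 and 3 at 0.02, -0.14 and -0.15. Rras2FF replicate 1 also stood apart in its interferon response, with 1166 summed CPM over 8 interferon genes against 259 and 141 in the other Rras2FF libraries and 99.6 to 258 in CKO. Of those 8 genes 0 were called by edgeR, DESeq2 or limma-voom, and 0 had an unadjusted p below 0.05. The part of that difference in the sterol and fatty acid levels was not tested. Without Rras2FF replicate 1, 0 sterol genes and 3 fatty acid genes, Fads2, Scd1 and Scd2, were called, and without Rras2FF replicate 3 the counts were 0 and 5. The count of sterol genes was 1 without Rras2FF replicate 2, 5 without CKO replicate 1, 1 without CKO replicate 2 and 0 without CKO replicate 3. For fatty acid genes it was 3 without Rras2FF replicate 2 and without CKO replicate 2 or 3, and 6 without CKO replicate 1. With the replicate number as a block the same 7 genes were called, where 5.21% of all genes were.

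**Figure D4:**
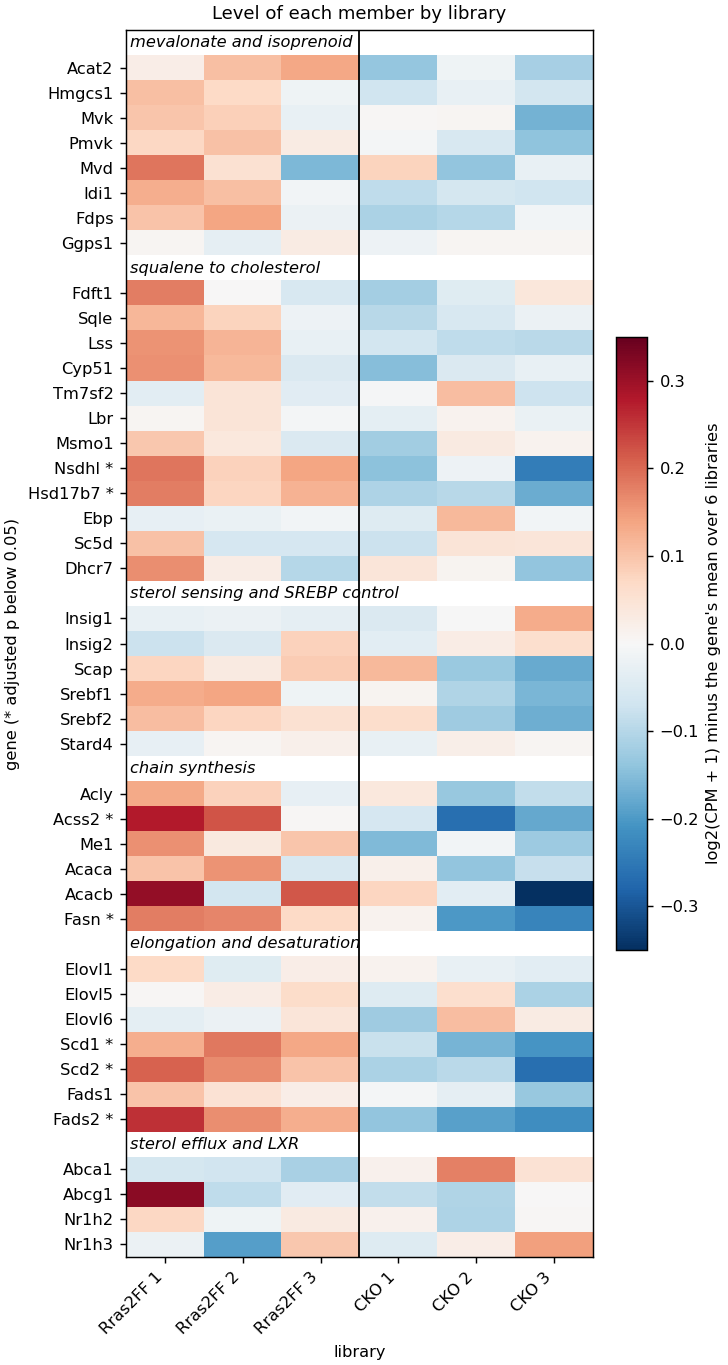
Level of each of the 43 genes (rows, by role) in each of the 6 libraries (columns), as log2(CPM + 1) minus the gene's mean over the libraries; red is above and blue below the mean, and asterisks mark called genes. The red of Rras2FF replicate 1 runs through most rows, 25 of the 43 genes being highest there, and the desaturases Scd1, Scd2 and Fads2 are red in all 3 Rras2FF libraries and blue in all 3 CKO libraries.

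A further 50 genes around these pathways were looked up, of which 46 were in the table. Of these 2 rose and 2 fell, 4 in all, where 4.84% of all genes were called in either direction, and their median log2 fold change was -0.02. Soat1, which esterifies cholesterol for storage, had 227, 231 and 240.2 CPM in Rras2FF and 262, 278 and 277 CPM in CKO. Lipa, the lysosomal acid lipase that frees cholesterol from its esters, had 1053, 1016 and 1105 CPM in Rras2FF and 1207, 1175 and 1229 CPM in CKO. Both rose, Soat1 by 0.22 with a standard error of 0.0437 (adjusted p = 0.00804) and Lipa by 0.19 with 0.0473 (adjusted p = 0.0366). Acsl3, an acyl-CoA synthetase of lipid droplets, had 52.1, 52.5 and 46.6 CPM in Rras2FF and 39.8, 44.2 and 40.8 CPM in CKO. Ch25h, which makes the oxysterol 25-hydroxycholesterol, was low, with 5.01, 4.49 and 3.77 CPM in Rras2FF and 2.65, 2.28 and 2.86 CPM in CKO. These fell by 0.28 (adjusted p = 0.0286) and 0.77 (adjusted p = 0.0294). In each of these 4 genes the groups did not overlap.

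Each of these 4 calls was lost without certain single libraries. Those fits called 268 to 379 genes over all genes, against 621 in the full fit. Soat1 had an adjusted p of 0.0507 and 0.063 without Rras2FF replicates 1 and 2. Lipa lost its call without Rras2FF replicates 1, 2 and 3 and CKO replicates 2 and 3 (0.115, 0.23, 0.0521, 0.0705 and 0.14), Acsl3 without Rras2FF replicates 1 and 2 and CKO replicate 3 (0.116, 0.148 and 0.0929), and Ch25h without Rras2FF replicates 1 and 2 and CKO replicates 2 and 3 (0.14, 0.119, 0.124 and 0.0558). Npc1 and Npc2 move cholesterol out of lysosomes, and neither passed, at 0.13 (adjusted p = 0.0994) and 0.08 (0.527) on the log2 scale. Npc1 was called without CKO replicate 1, in a fit that called 1166 genes over all genes.

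Markers of several cell types also differed between the groups. Of 10 osteoblast markers 2 fell, Col1a1 and Runx2, and their summed level was 12100 to 13110 CPM in Rras2FF and 8263 to 9814 CPM in CKO. DESeq2 and limma-voom each called 6 of the 10, and 8 had every CKO library below every Rras2FF library. The adjusted p of Runx2 was 0.074 when Rras2FF replicate 3 was left out, 0.0538 without CKO replicate 2 and 0.0632 without CKO replicate 3. Of 8 marrow stroma markers 6 rose, Cxcl12, Lepr, Kitl, Ebf3, Foxc1 and Grem1, and the sum went from between 4221 and 4405 to between 5571 and 5955 CPM. Of 12 macrophage markers 2 rose, Tyrobp and Mrc1, and 1 fell, Cd14, with sums of 23570 to 24940 CPM in Rras2FF and 25620 to 26390 CPM in CKO. Of 10 adipocyte markers 6 were measured and 1, Adipoq, rose (log2 fold change 0.95), with sums of 2784 to 2914 CPM in Rras2FF and 3054 to 3141 CPM in CKO. Most of that sum was Lpl, a lipase that macrophages also express, at 2500 and 2718 CPM on average. Plin1, a lipid droplet coat gene of fat cells, averaged 1.06 and 1.23 CPM. The summed level of the elongation and desaturation genes was 1245 to 1305 CPM in Rras2FF and 1029 to 1116 CPM in CKO. Of that sum Scd2 alone averaged 592 and 477 CPM. Of 7 plasma cell and B cell markers 5 were measured and 3 rose, Igkc, Ighm and Jchain (323 to 350 CPM in Rras2FF and 439 to 503 CPM in CKO). The 7 neutrophil markers and the 5 endothelial markers measured of 6 had 0 calls by edgeR, 1 of each list having an unadjusted p below 0.05, and DESeq2 called 1 and 0 of them, limma-voom 0 and 0. Their sums overlapped, at 622 to 819 CPM and 540 to 721 CPM for neutrophils and 37.96 to 50.5 and 36.8 to 45.1 CPM for endothelium. No erythroid marker of 4 was among the listed genes, so that list was not analysed here. No measured marker was at 0. Among the called markers of the other lists, Tyrobp kept its call in 3 of the 6 fits that left out a library, Cd14 and Ighm in 2, and Foxc1 and Mrc1 in 1. The part of these cell types in the levels of the sterol and fatty acid genes was not tested.

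**Figure D5:**
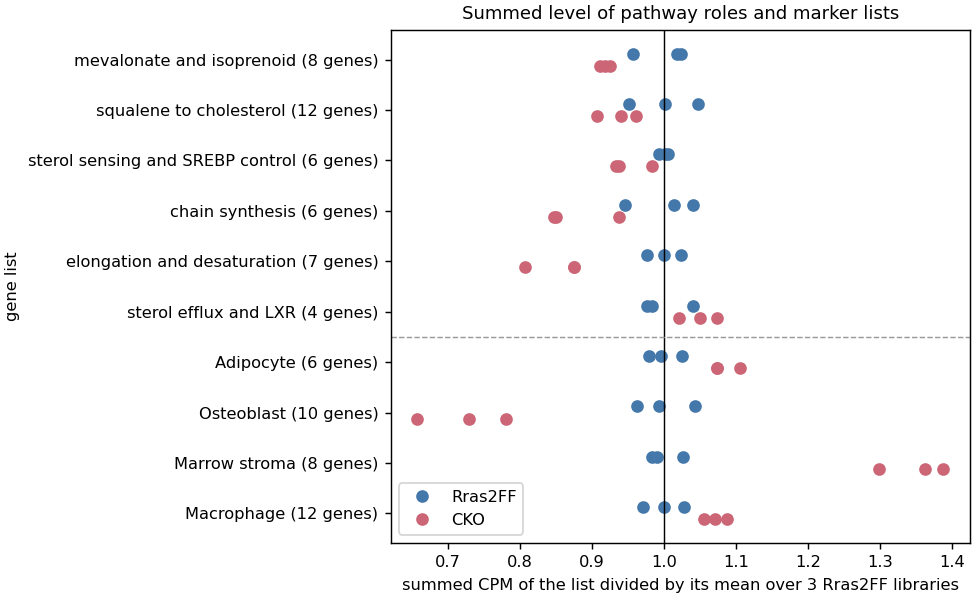
Summed CPM of each role group and of 4 marker lists in every library, divided by the list's mean over the 3 Rras2FF libraries (horizontal axis; blue, Rras2FF; red, CKO; the dashed line separates roles from markers). Among the roles the groups do not overlap for mevalonate (671.7 to 718.7 CPM in Rras2FF, 639.8 to 649.7 in CKO), sterol sensing (642.3 to 650.4, 604.4 to 636.8), chain synthesis (607.8 to 668.6, 544.5 to 602.8) and elongation and desaturation (1245 to 1305, 1029 to 1116). They overlap for squalene to cholesterol and for efflux. Taken singly, all 6 sterol sensing genes had overlapping groups. In the elongation and desaturation sum, Scd2 alone averaged 592 CPM in Rras2FF and 477 CPM in CKO. How often sums of other gene lists do not overlap was not counted. None of the 4 marker lists drawn overlaps. Of the marker lists not drawn, the neutrophil, endothelial and interferon sums overlap and the plasma cell and B cell sum does not. Most of each drawn marker sum came from a single gene, Lpl (adipocyte), Col1a1 (osteoblast), Cxcl12 (marrow stroma) and Lyz2 (macrophage).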

How the data were processed

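The members and gene lists, here the 43 genes, their split into roles, the further pathway genes and the marker lists, were chosen with earlier results of these data known. The table deposited by the authors held raw gene counts for 6 libraries, with 0 other columns of single samples. Per the file headers, it also held FPKM values, log2 fold changes, p-values and adjusted p-values of the authors' own comparison. Reads came from a stranded mRNA kit, and the submitters' processing notes name mm10. Aligner, counting tool and strand setting: not given in the sources used here. Rows without a symbol took the one that a reference table of gene names gives their identifier, which named 45 rows. Gene positions are those of GENCODE M21 on mm10.

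The main test on the counts was edgeR's (version 4.0.16, under R 4.3.3; TMM scaling, filterByExpr, quasi-likelihood F test with robust estimation, no covariates), over all 12830 genes, with Benjamini-Hochberg adjustment and a threshold of 0.05. The filter removed 0 genes. The lowest mean count was 22.3, so rarer genes are not analysed here. Standard errors are the absolute log2 fold change divided by the square root of F. DESeq2 1.42.0, limma-voom (limma 3.58.1), other scalings and filters, a replicate block and each library left out were alternatives; the test was tested on simulated data. The deposited fold changes and those from DESeq2 differed by at most 0.000109 on the log2 scale. Values per library were given for called genes, genes called by DESeq2 alone, and the 2 of largest mean FPKM in each role; some genes that the rule takes among the further pathway genes are not reported here. No pair of libraries in a group agreed within sampling noise (chi-square per degree of freedom at least 7.77).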

Additional observations from a re-analysis of the deposited data

How the results depend on the processing

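All 7 called genes were lower in CKO in each of the 15 fits. Fads2, Scd1 and Scd2 kept their calls in all of them, and the other four lost theirs when certain libraries were left out. Over all genes the count of calls went from 621 to between 268 and 1166 when 1 library was left out. In the same fits the sterol branch had 0 to 5 calls, the fatty acid branch 3 to 6, the efflux and LXR genes 0 to 1 and the further pathway genes 0 to 8. The higher counts came without CKO replicate 1. In limma-voom the counts were 1 for the sterol branch, 3 for the fatty acid branch and 2 for the further pathway genes, and in DESeq2 the efflux and LXR genes had 1. The medians of the branches ranged over -0.142 to -0.0831 (sterol), -0.242 to -0.166 (fatty acid) and -0.0378 to 0.0446 (efflux and LXR) when 1 library was left out. Scaling, a stricter filter or none changed no call of the 43 genes where the gene was tested; at a mean of at least 10 CPM Acacb and Ch25h were not tested, so the further pathway count was 3.

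With the replicate number as a block, 669 genes were called in all, and 2, 5, 0 and 6 in the sterol, fatty acid, efflux and further lists; no call of the 43 genes changed. Same-numbered libraries of the groups had correlations of -0.042, 0.0633 and -0.146 in their deviations from the group means, and not every library correlated best with its own number, so the numbers are not treated as pairs.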
